A study of Mus musculus with 12 samples.

Results

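The interaction between genotype and injury asks whether UIR changed a kidney transcript by a different amount in knockout than in control mice. All 12 of the 12 RNA-seq libraries of the series entered the test, because the contrast needs every group: the change from sham to UIR in PTCKO kidneys minus the same change in WT kidneys. WT mice carried floxed Wwp2 alleles (WWP2 fl/fl), and PTCKO mice lacked Wwp2 conditionally in the proximal tubule. All were C57BL/6J-background males of 8 weeks. Each genotype was studied after sham surgery and after UIR, an injury used here to model how acute kidney injury turns chronic. The labels give 6 to 8 mice per group, and 3 kidney libraries were sequenced in each of the 4 groups. The sources used here do not give the Cre driver, the floxed exon, the delay between UIR and tissue collection, or whether a library is 1 mouse or a pool, so p-values measure the spread between libraries.

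Wwp2 is a HECT-type E3 ubiquitin ligase of the NEDD4 family, which marks other proteins for degradation or re-routing. The proximal tubule is the nephron segment that reabsorbs most filtered solute. It is rich in mitochondria, burns fatty acids, makes glucose and secretes organic ions, and it is the segment most exposed to ischaemic injury. An interaction can arise in more than one way: the genotypes may differ only after UIR, only after sham, or after both surgeries by different amounts. The same interaction value therefore covers different situations, and each called gene was sorted by the surgery in which PTCKO and WT differed.

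Totals of expected counts were 15495163 to 19645743 per library, and replicates correlated at 0.986 to 0.994 on log2(CPM + 0.5). For Wwp2 itself (GRCm38.p6 chromosome 8, 107436334 to 107559290), libraries labelled PTCKO did not have the lower level: FPKM came to 15.18, 15.69 and 17.11 after sham in WT, 15.62, 16.09 and 17.61 after sham in PTCKO, 17.64, 19.15 and 17.91 after UIR in WT, and 22.28, 19.27 and 20.53 after UIR in PTCKO. Its interaction was not called (log2 0.28, SE 0.103, adjusted p = 0.0687). It was called with DESeq2 (0.31, adjusted p = 0.0346), with a trend on transcript length removed (0.45, adjusted p = 0.0301) and without PTCKO UIR 2 (0.34, adjusted p = 0.0287), and it was -0.014 with TPM. Reads over a whole gene in whole kidney cannot show loss of an exon in a single segment, so this is no check of the labels, and every direction between genotypes rests on them. Fold changes come from counts scaled by TMM, with factors of 0.749 to 0.855 in sham and 1.17 to 1.29 in UIR libraries. FPKM carries no such factor, so ratios of FPKM between sham and UIR differ from the fitted changes. Factors within sham were 0.749 to 0.793 in WT and 0.829 to 0.855 in PTCKO, so FPKM gaps between genotypes also differ from fitted gaps. The median sham gap over all genes was -0.004 with TMM and 0.12 without scaling factors.

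The change from sham to UIR differed between the genotypes for 3288 of 15322 genes tested (21.5%, edgeR quasi-likelihood test, Benjamini-Hochberg adjusted p under 0.05). Of these, 2203 (14.4% of genes tested) had a positive interaction, meaning that the change after UIR was more upward, or less downward, in PTCKO. The other 1085 (7.08%) had a negative one. Positive calls made up 67.0% of calls. That split depended on scaling: it was 69.5% with DESeq2, 53.6% with upper quartile scaling, 32.1% without scaling factors, 33.0% with limma on log2(FPKM + 1) and 17.1% with limma on log2(TPM + 1). The median interaction over all genes was -0.0015 with TMM, -0.20 without scaling factors and -0.28 with TPM. The number of calls was 1743 without PTCKO UIR 3, 1743 without WT UIR 1, 2054 without PTCKO UIR 1 and 2186 without WT sham 3. Positive calls were 1217 without PTCKO UIR 3, 1234 without WT UIR 1 and 1463 without PTCKO UIR 1. Negative calls on leaving out a library were 509 (WT UIR 1), 526 (PTCKO UIR 3), 591 (PTCKO UIR 1), 639 (WT sham 3), 687 (PTCKO sham 1) and 1765 (PTCKO UIR 2).

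Called interactions were spread over genes with a genotype gap after UIR, after sham or in neither surgery. The gap, PTCKO minus WT within a surgery, was called for 1645 genes after sham (10.7%) and 2115 after UIR (13.8%). Among genes called for the interaction, 1171 (35.6%) had a called gap after UIR alone, 918 with a positive and 253 with a negative interaction. A further 946 (28.8%) had it after sham alone, 496 positive and 450 negative. Gaps were called after both surgeries with opposite signs in 183 genes (5.57%), 159 of them positive, so that PTCKO was below WT after sham and above it after UIR. In 9 genes (0.274%) the gaps had the same sign but different sizes. Neither gap was called in 979 genes (29.8%), and all 979 had gaps of opposite sign in the fit, neither past the threshold alone. Over all genes tested, 95 had called gaps of the same sign after both surgeries, and only 9 of these had a called interaction.

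The class sizes depended on single libraries. Genes with a gap after sham alone numbered 250 without WT sham 3, 309 without PTCKO sham 1, 334 without PTCKO sham 2, 412 without PTCKO sham 3, 462 without WT sham 1, 537 without WT UIR 1, 570 without PTCKO UIR 1 and 607 without WT UIR 2. Genes with a gap after UIR alone numbered 514 without PTCKO UIR 3, 555 without WT UIR 1 and 1856 without PTCKO UIR 2. Genes with neither gap numbered 509 without PTCKO UIR 3, 600 without WT UIR 1 and 641 without PTCKO UIR 1. The 9 same-sign genes were 4 without PTCKO UIR 3 and 5 without PTCKO sham 3, PTCKO UIR 1, WT sham 2, WT UIR 1 or WT UIR 3. The order of the sham class and the UIR class also turned with the setting. The sham class was the larger with DESeq2 (1340 against 1320), without scaling factors (1372 against 1083), with limma on log2(FPKM + 0.1) (1106 against 967), with TPM (1698 against 1307), without PTCKO UIR 3 (654 against 514) and without WT UIR 3 (837 against 781).

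**Figure D1:**
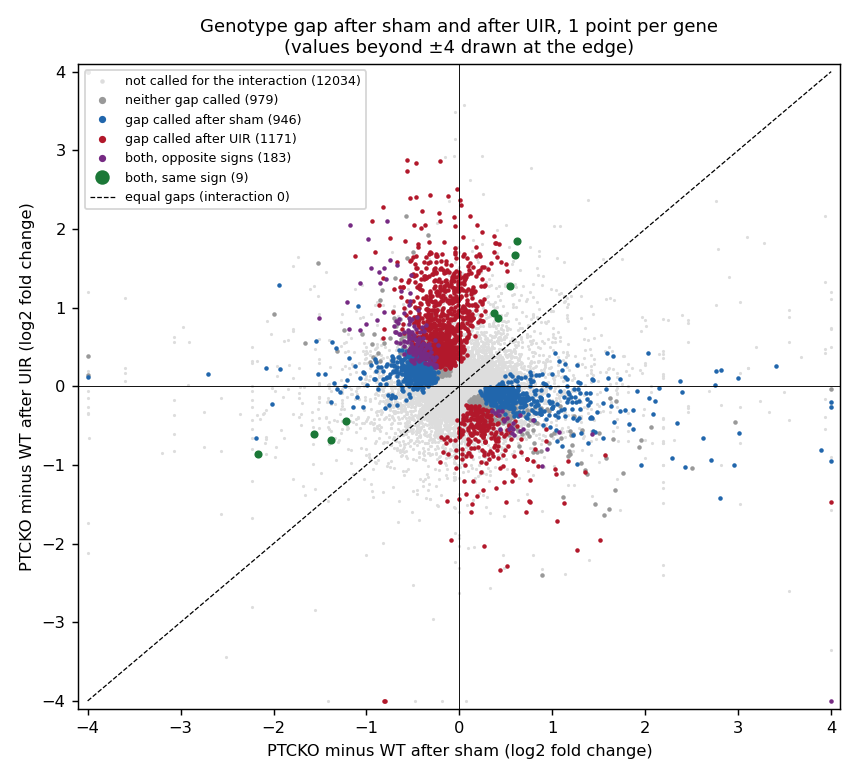
Each point is 1 of the 15322 genes tested, with the log2 fold change of PTCKO over WT after sham on the x axis and after UIR on the y axis; values beyond ±4 are drawn at the edge. Coloured points are the 3288 genes called for the interaction, by class, and they lie away from the dashed line of equal gaps, above it for 2203 positive and below it for 1085 negative interactions.

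A smaller fall after UIR in PTCKO was the most frequent relation among called interactions with TMM scaling. Of the 3288 genes, 1695 (51.6%) were lower after UIR in both genotypes with the smaller change in PTCKO, against 27.8% of all genes tested. This share depended on scaling: it was 51.8% of calls with DESeq2, 39.6% with upper quartile scaling, 22.3% without scaling factors, 22.4% with limma on log2(FPKM + 1) and 12.6% with TPM. Another 606 (18.4%) were higher after UIR in both with the smaller change in PTCKO, against 30.4% of genes tested. The change had opposite signs in the genotypes for 652 genes (19.8%, against 12.7% of genes tested). A larger change in PTCKO was found in 186 genes (5.66%) that were higher and 149 (4.53%) that were lower after UIR in both. These shares describe fitted values of both genotypes.

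Proximal tubule transcripts mostly had a called gap after UIR alone. Of 40 proximal tubule markers tested, 30 had a positive and 1 a negative interaction, and 28 of these 31 had a called gap after UIR alone. Their median gap was 0.01 after sham and 1.20 after UIR on the log2 scale, against -0.004 and 0.0049 over all genes tested, and their median interaction was 1.24. The median change after UIR was -4.25 in WT and -2.82 in PTCKO. Summed over the 40 markers, FPKM was 124298 to 129062 after sham in WT, 112619 to 117422 after sham in PTCKO, 6654 to 12208 after UIR in WT and 15170 to 24473 after UIR in PTCKO. In bulk tissue, fewer cells of a type and less RNA per cell cannot be told apart. Over the same libraries, summed FPKM of 18 macrophage and monocyte markers was 5792 to 8797 after UIR in WT and 4142 to 5380 after UIR in PTCKO, and their part in the result was not tested.

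Slc7a9, the light subunit of the renal cystine transporter, illustrates the pattern. Its FPKM was 67.91, 63.90 and 74.15 after sham in WT and 64.73, 68.16 and 80.58 after sham in PTCKO, so the sham groups overlapped. After UIR it was 12.87, 21.11 and 13.85 in WT and 43.40, 33.50 and 43.73 in PTCKO, and the groups were separate. The interaction was 1.42 (SE 0.234, adjusted p = 0.00316), with a gap of -0.03 after sham and 1.39 after UIR. Its partner, the heavy subunit Slc3a1, gave 1.25 (SE 0.247, adjusted p = 0.00625). Amn, which anchors the endocytic receptor cubilin in the apical membrane, had overlapping sham groups (63.19 to 87.44 FPKM over the 6 libraries), 11.31 to 18.21 after UIR in WT and 27.06 to 41.09 after UIR in PTCKO, with an interaction of 1.71 (SE 0.279, adjusted p = 0.00303).

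Carriers of organic ions and drugs had called gaps mostly after UIR. Of 27 organic ion and drug transporters, 14 had a positive and 0 a negative interaction (median 0.94), 12 of them with the gap after UIR alone. Slc47a1, the apical efflux transporter for organic cations, stood at 344.20 to 358.10 FPKM after sham in WT and 322.24 to 391.29 after sham in PTCKO, then at 34.28 to 56.85 after UIR in WT and 89.11 to 112.17 after UIR in PTCKO. Its interaction was 1.34 (SE 0.234, adjusted p = 0.00392). Among 36 cytochrome P450 genes, 9 were positive and 3 negative (33.3% called, median 0.64), 8 of the 12 with the gap after UIR alone and 24 not called. The 12 calls were 7 without PTCKO UIR 3 or WT UIR 1.

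Cyp4f18, a P450 of the fatty acid omega-hydroxylase family, had the largest positive interaction among genes of this class whose mean FPKM reached 5 in a group (3.44, SE 0.369, adjusted p = 0.00137). Its FPKM was 0.31, 0.40 and 0.63 after sham in WT and 0.27, 0.46 and 0.31 after sham in PTCKO. After UIR it was 0.96, 1.15 and 1.16 in WT and 7.63, 8.54 and 6.46 in PTCKO. The gene was low in every library but the 3 of PTCKO UIR, which did not overlap with WT UIR. It was taken from genes with a called gap after UIR, so the separation adds no support. Here the change after UIR was not a fall reduced in PTCKO: the fitted change was 0.52 in WT and 3.96 in PTCKO.

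The fibrinogen chains behaved in another way again. Fga, the alpha chain, was at 16.88, 16.50 and 9.82 FPKM after sham in WT, 9.34, 10.05 and 8.54 after sham in PTCKO, 1.66, 4.15 and 4.58 after UIR in WT, and 16.73, 9.39 and 20.49 after UIR in PTCKO. It changed by -2.80 in WT and 0.31 in PTCKO, an interaction of 3.11 (SE 0.482, adjusted p = 0.00258). Fgg, the gamma chain, had 1.5, 4.51 and 6.24 after UIR in WT and 22.93, 11.10 and 27.03 after UIR in PTCKO (interaction 2.87, SE 0.557, adjusted p = 0.0059). The genotypes were separate after UIR for both chains, and WT UIR 1 was the lowest library for both. Both chains were picked for their calls, so the separation adds no support.

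Gluconeogenesis had the highest median interaction of the metabolic lists given here. Of its 8 members, 7 were positive and 0 negative (median 1.44), with medians of -0.30 for the sham gap and 1.11 for the UIR gap. Pck1, which commits oxaloacetate to glucose synthesis, stood at 1688.21, 1476.00 and 1487.72 FPKM after sham in WT, 1444.60, 1040.33 and 1089.07 after sham in PTCKO, 49.32, 83.06 and 59.34 after UIR in WT, and 95.79, 173.84 and 218.46 after UIR in PTCKO. The order of the genotypes was reversed between the surgeries without overlap in either, and only the gap after UIR was called (1.42, adjusted p = 0.00483; sham -0.51, adjusted p = 0.224). Its interaction was 1.93 (SE 0.383, adjusted p = 0.00649). Fbp1, the next regulated step, gave 1.70 (SE 0.363, adjusted p = 0.00877), and Slc37a4, the glucose-6-phosphate transporter, 1.24 (SE 0.25, adjusted p = 0.00692).

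Segments beyond the proximal tubule were part of the class too. Calb1, the calcium-binding protein calbindin of the distal convoluted tubule, was at 134.06 to 159.54 FPKM after sham in WT, 121.45 to 146.01 after sham in PTCKO, 1.75, 5.38 and 5.03 after UIR in WT, and 18.50, 13.93 and 50.81 after UIR in PTCKO. Its interaction was 3.08 (SE 0.625, adjusted p = 0.00704). Of 8 distal convoluted tubule markers, 4 were positive and 0 negative, 3 with the gap after UIR alone. The 4 calls were 1 without PTCKO sham 2 or with limma on log2(FPKM + 0.1). Of 8 intercalated cell markers, 1 was negative and 0 positive (median -0.16), a called share of 12.5% against 21.5% of genes tested. After UIR, 3 of the 8 were lower and 0 higher in PTCKO. Of all genes tested, 4.5% were lower and 9.3% higher after UIR. Of 9 principal cell markers of the collecting duct, 5 were positive and 0 negative (median 0.83). All 5 had the gap after UIR alone, although the count was 2 without WT UIR 1, 3 without PTCKO UIR 3, PTCKO sham 1, PTCKO sham 3 or WT sham 3, 3 with TPM and 1 with limma on log2(FPKM + 0.1). Scnn1b, the beta subunit of the epithelial sodium channel, was at 25.03, 25.68 and 29.21 after sham in WT and 23.13, 24.22 and 24.08 after sham in PTCKO, against 21.09, 23.95 and 19.53 after UIR in WT and 29.88, 31.42 and 36.37 after UIR in PTCKO (interaction 0.96, SE 0.15, adjusted p = 0.0026). The water channel Aqp3 gave 1.12 (SE 0.286, adjusted p = 0.0176). It was not called without WT UIR 1 (1.02), with TPM (0.69) or with limma on log2(FPKM + 0.1) (0.89).

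**Figure D2:**
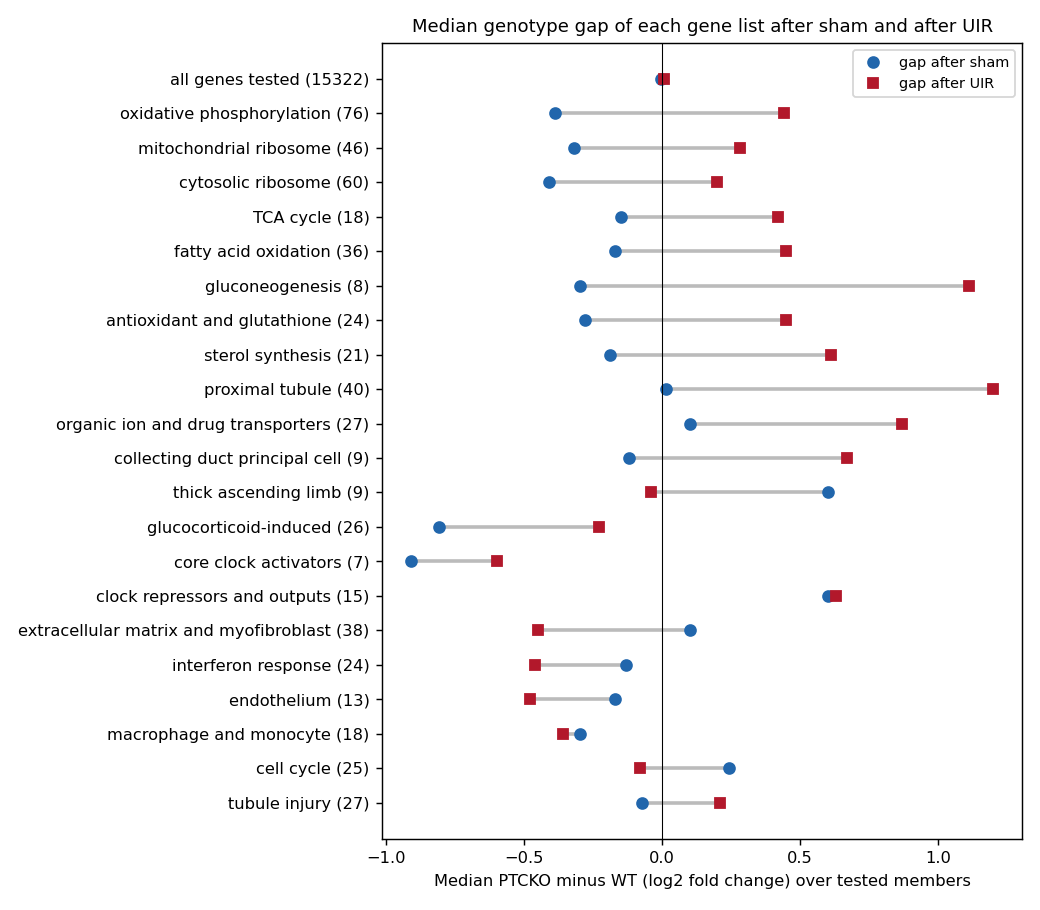
Each row is a gene list, with the number of tested members in brackets; the x axis is the median log2 fold change of PTCKO over WT over those members, after sham (circles) and after UIR (squares). Proximal tubule markers start at 0.01 and reach 1.20, oxidative phosphorylation runs from -0.39 to 0.44, glucocorticoid-induced genes run from -0.81 to -0.23, and the matrix list runs from 0.10 to -0.45.

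With TMM scaling, oxidative phosphorylation genes differed from the tubule transporters in where their gap lay. Of 76 nuclear-encoded oxidative phosphorylation genes, 73 had a positive and 0 a negative interaction. Complex I had 35 of 36 called, complex II had 4 of 4, complex III 9 of 9, complex IV 11 of 12 and complex V 14 of 15, the last falling to 9 without WT UIR 1 and to 7 with TPM. The median interaction of 0.81 was split almost evenly between a gap of -0.39 after sham and 0.44 after UIR. Of the 73, 37 had a called gap after UIR alone, 5 after sham alone, 10 after both with opposite signs and 21 after neither. Summed FPKM over the 76 genes was 37028, 35383 and 42539 after sham in WT, 31834, 34973 and 31222 after sham in PTCKO, 14725, 16691 and 16567 after UIR in WT, and 21216, 17850 and 23309 after UIR in PTCKO. PTCKO was lower than WT after sham and higher after UIR, without overlap in either surgery.

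Ndufa8, a complex I subunit of the intermembrane space, was at 257.05, 255.82 and 288.75 FPKM after sham in WT and 210.78, 224.70 and 216.00 after sham in PTCKO. After UIR it was 90.41, 107.02 and 110.57 in WT and 148.02, 124.34 and 168.97 in PTCKO. The groups were separate in both surgeries and in opposite order, with an interaction of 1.02 (SE 0.183, adjusted p = 0.00439). Uqcrq of complex III gave 1.13 (SE 0.226, adjusted p = 0.0067), Cox5a of complex IV 0.95 (SE 0.201, adjusted p = 0.00824) and Atp5o of the ATP synthase 0.77 (SE 0.154, adjusted p = 0.00663). With a trend on transcript length removed, Atp5o was not called (0.31, adjusted p = 0.0927). For Sdhb, the iron-sulfur subunit of succinate dehydrogenase, the sham groups overlapped (325.79 to 359.00 in WT, 288.52 to 359.19 in PTCKO) and the UIR groups did not (89.55 to 103.86 against 125.65 to 173.26). Its interaction was 0.89 (SE 0.192, adjusted p = 0.00903).

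Oxidative phosphorylation transcripts are short, with a median effective length of 681 bases against 2804 over all genes tested, and length moved with the interaction. In 5 equal classes of effective length, from shortest to longest, the median interaction was 0.42, 0.16, -0.012, -0.15 and -0.26. The sham gap ran from -0.26 to 0.17 and the UIR gap from 0.15 to -0.084. Across genes, which are not independent replicates, Spearman's rho of length with the interaction was -0.43. In the shortest class, WT sham 3 lay 0.24 above the mean of the sham libraries and PTCKO UIR 2 lay 0.058 below the mean of the UIR libraries, against 0.13 and 0.15 above it for the other PTCKO UIR libraries. With a smooth trend on length removed from each library, an alternative chosen after seeing the data, 2079 genes were called, of which 1743 were among the 3288. The oxidative phosphorylation count was then 29 of 76 (16 of complex I, 2 of complex II, 4 of complex III, 2 of complex IV and 5 of complex V), with a median interaction of 0.38, a sham gap of -0.074 and a UIR gap of 0.29. Whether the length trend comes from the RNA, the libraries or the kidneys was not tested.

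**Figure D3:**
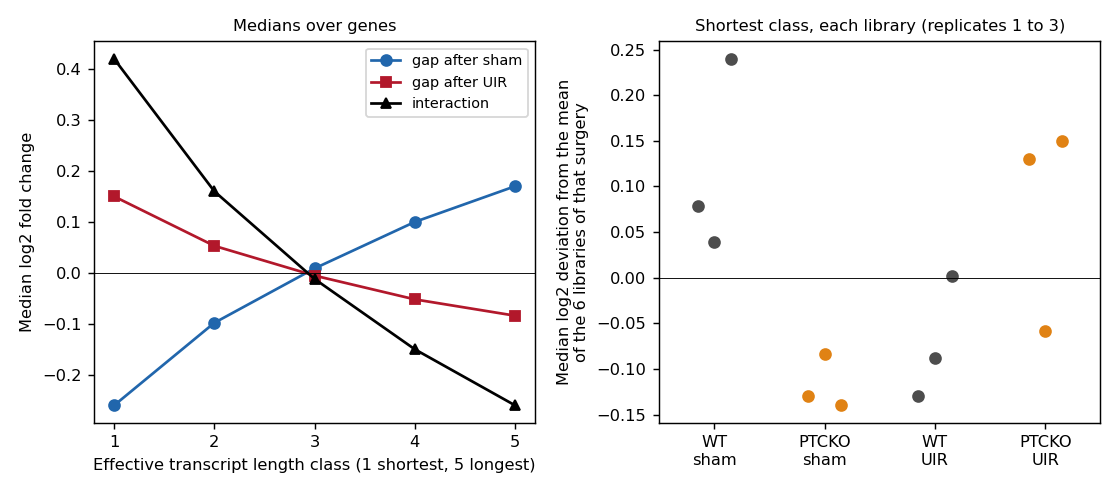
Left, median log2 fold change (y) over genes in 5 classes of effective transcript length (x, 1 shortest), for the gap after sham, the gap after UIR and the interaction, which falls from 0.42 to -0.26. Right, for the shortest class, the median log2 deviation of each of the 12 libraries from the mean of the 6 libraries of the same surgery; WT sham 3 is highest at 0.24.

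Ribosomal protein genes lost nearly all their calls with the length trend removed. Of 60 cytosolic ribosomal protein genes, 40 had a positive and 0 a negative interaction (median 0.62), 18 with a called gap after sham alone and 22 with neither gap called. The median gap was -0.41 after sham and 0.20 after UIR. With the length trend removed, 1 of 60 was called and the median was 0.15. Leaving out a library gave 7 (WT UIR 1), 9 (PTCKO UIR 3), 10 (PTCKO UIR 1), 16 (WT sham 3), 17 (PTCKO sham 3), 19 (PTCKO sham 1) and 20 (WT UIR 2). Rpl10a, of the large subunit, was at 329.93, 318.32 and 375.53 FPKM after sham in WT, 274.26, 273.20 and 268.46 after sham in PTCKO, 536.01, 559.42 and 596.67 after UIR in WT, and 752.57, 581.55 and 677.55 after UIR in PTCKO. Its sham groups were separate and its UIR groups overlapped (interaction 0.78, SE 0.166, adjusted p = 0.00892), and its call was lost with the length trend removed (0.34, adjusted p = 0.0557).

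Mitochondrial ribosomal protein genes had 38 positive and 0 negative interactions of 46 (median 0.59), and 14 with the length trend removed, 11 with TPM and 20 without scaling factors. Without single libraries the count was 18 (WT UIR 1), 20 (PTCKO UIR 3), 23 (PTCKO UIR 1), 24 (WT sham 3), 24 (PTCKO sham 3) and 25 (PTCKO sham 1). Mrps35, of the small mitochondrial subunit, was at 53.56 to 69.49 FPKM after sham in WT, 42.94 to 49.61 after sham in PTCKO, 24.01 to 26.85 after UIR in WT and 31.27 to 36.55 after UIR in PTCKO. The groups were separate in both surgeries, in opposite order (interaction 1.02, SE 0.164, adjusted p = 0.00295).

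Fatty acid oxidation, TCA cycle and antioxidant lists had most of their members called. Of 36 fatty acid oxidation genes, 22 were positive and 0 negative (median 0.73), and 18 were called with the length trend removed. The count was 13 without WT UIR 1, 14 without PTCKO UIR 3, 14 with limma on log2(FPKM + 0.1) and 11 with TPM. Acaa1b, a peroxisomal thiolase, was at 303.35, 217.36 and 314.88 FPKM after sham in WT, 190.83, 166.55 and 147.73 after sham in PTCKO, 11.78, 17.95 and 12.25 after UIR in WT, and 27.81, 27.01 and 44.84 after UIR in PTCKO. Both gaps were called with opposite signs, -0.85 after sham and 1.31 after UIR, giving an interaction of 2.16 (SE 0.324, adjusted p = 0.00229). In the TCA cycle 13 of 18 were positive and 0 negative (median 0.57), with 10 gaps after UIR alone, and 10 were called with the length trend removed. The TCA count was 7 without WT UIR 1, 8 without PTCKO UIR 3, 8 without scaling factors or with limma on FPKM, and 3 with TPM. Of 24 antioxidant and glutathione genes, 15 were positive and 0 negative (median 0.75), and 11 with the length trend removed (median 0.54). Idh2, the mitochondrial NADP-dependent isocitrate dehydrogenase, had overlapping sham groups and an interaction of 0.77 (SE 0.159, adjusted p = 0.00733). Of 21 sterol synthesis genes, 14 were positive and 1 negative, and the 15 calls were 9 with limma on log2(FPKM + 0.1) and 7 with TPM.

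In the class with opposite gaps the genotypes changed places. Gsta2, a glutathione transferase, had its largest positive interaction among genes whose mean FPKM reached 5 in a group (2.89, SE 0.285, adjusted p = 0.00128). It was at 625.00, 456.00 and 492.22 FPKM after sham in WT and 333.72, 285.22 and 376.58 after sham in PTCKO, and at 26.31, 49.93 and 32.19 after UIR in WT and 145.58, 141.88 and 157.73 after UIR in PTCKO. Neither pair of groups overlapped, but Gsta2 was taken from genes with both gaps called, so the separation adds no support. Dnase1, a secreted endonuclease abundant in kidney, was at 904.17 to 997.87 after sham in WT, 497.77 to 628.70 after sham in PTCKO, 20.76 to 48.76 after UIR in WT and 68.72 to 118.28 after UIR in PTCKO (interaction 2.46, SE 0.379, adjusted p = 0.00251). Gpx1, the cytosolic glutathione peroxidase, went the same way (1.40, SE 0.203, adjusted p = 0.00192), as did the stress-induced Gadd45g (2.37, SE 0.328, adjusted p = 0.00165) and the circulating lectin Mbl1 (2.86, SE 0.376, adjusted p = 0.00147). The reverse order occurred for Myo5a, an actin motor for vesicle transport. It was at 1.94, 2.62 and 3.07 after sham in WT, 7.6, 8.78 and 5.96 after sham in PTCKO, 8.00, 6.07 and 7.20 after UIR in WT, and 4.59, 4.95 and 3.78 after UIR in PTCKO. UIR raised it in WT and lowered it in PTCKO by the fitted values (0.76 and -1.27; interaction -2.03, SE 0.244, adjusted p = 0.00147).

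The class had 183 members in all and was the one most changed by leaving out a library. It held 32 genes without WT sham 3, 33 without PTCKO sham 1, 46 without WT UIR 1, 48 without PTCKO sham 3, 52 without PTCKO sham 2, 57 without PTCKO UIR 1, 58 without WT sham 1, 62 without PTCKO UIR 3, 75 without WT UIR 3 and 580 without PTCKO UIR 2.

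Genes known to be induced by glucocorticoids were lower in PTCKO after sham in 16 of 26 cases. Glucocorticoids act through a nuclear receptor that binds response elements in DNA, and their daily secretion ties these genes to time of day. Of 26 such genes, 11 had a positive and 0 a negative interaction (median 0.49). Their median gap was -0.81 after sham and -0.23 after UIR. Of the 11, 8 had a called gap after sham alone and 3 had gaps of the same sign after both surgeries. Whatever the interaction, 9 of 26 were lower in PTCKO after UIR, and the shares of all genes tested that were lower were 5.5% after sham and 4.5% after UIR. None was higher in either (0, against 5.23% and 9.3% of genes tested).

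Arrdc2, an arrestin-domain protein, had the largest positive interaction of the sham class among genes whose mean FPKM reached 5 in a group (2.32, SE 0.229, adjusted p = 0.00128). It was at 19.72, 26.54 and 16.76 FPKM after sham in WT and 5.86, 4.87 and 5.40 after sham in PTCKO, then at 9.33, 7.31 and 8.12 after UIR in WT and 8.41, 8.67 and 10.69 after UIR in PTCKO. WT sham stood above the other 3 groups, and the UIR groups overlapped. Ppard, a nuclear receptor for fatty acids, was at 52.91, 42.59 and 28.85 after sham in WT, 10.11, 11.05 and 12.44 after sham in PTCKO, 14.91 to 15.14 after UIR in WT and 11.20 to 13.44 after UIR in PTCKO (interaction 1.79, SE 0.221, adjusted p = 0.00147). Noct, a rhythmic NADPH phosphatase, had 16.52, 20.37 and 32.23 after sham in WT, 5.59, 5.32 and 8.51 after sham in PTCKO, and overlapping UIR groups between 10.57 and 16.54 (interaction 2.15, SE 0.348, adjusted p = 0.003). Polr3e, a subunit of RNA polymerase III, had 38.02 to 67.25 after sham in WT and 21.07 to 24.09 after sham in PTCKO (interaction 1.93, SE 0.276, adjusted p = 0.0019). The sham groups were separate for all 4 genes, but each was taken from genes with a called gap after sham, so the separation adds no support.

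Cdkn1a, the cyclin-dependent kinase inhibitor p21, was lower in PTCKO after both surgeries but less so after UIR. Its FPKM was 29.66, 42.73 and 30.69 after sham in WT, 8.61, 7.98 and 8.36 after sham in PTCKO, 90.57, 110.82 and 98.00 after UIR in WT, and 53.78, 58.06 and 45.42 after UIR in PTCKO. The gap was -2.17 after sham and -0.87 after UIR, and UIR raised the transcript by 0.83 in WT and 2.14 in PTCKO on the log2 scale (interaction 1.31, SE 0.181, adjusted p = 0.00165). Sgk1, a kinase that activates sodium transport, and Tsc22d3, the glucocorticoid-induced leucine zipper protein, belonged to the same class and were chosen after their values were seen. Sgk1 was at 70.19, 71.85 and 78.00 after sham in WT, 33.12, 27.55 and 31.46 after sham in PTCKO, 53.00, 48.85 and 60.07 after UIR in WT, and 28.55, 39.51 and 29.09 after UIR in PTCKO (interaction 0.70, SE 0.18, adjusted p = 0.0173). PTCKO was below WT without overlap in each surgery. The call for Sgk1 was lost without scaling factors (0.51, adjusted p = 0.0514), with limma on log2(FPKM + 1) (0.50, adjusted p = 0.0516) and with TPM (0.35, adjusted p = 0.179). Tsc22d3 gave 0.78 (SE 0.175, adjusted p = 0.0103). Dnajc6, an auxilin that uncoats clathrin vesicles, and Tgm1, a transglutaminase, were instead higher in PTCKO after both surgeries, more so after UIR (1.22 and 1.07). Neither was called with limma on log2(FPKM + 1), where Dnajc6 fell to 0.055 and Tgm1 to 0.47, or with TPM (0.12 and 0.46).

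Clock genes included members whose genotype gap had the same sign after both surgeries. The circadian clock is a loop in which Arntl, Clock and Npas2 activate Per and Cry genes through E-boxes, and outputs such as Dbp, Hlf and Tef bind D-boxes. Called gaps of the same sign after both surgeries were found in 3 of 7 genes listed as core clock activators and 5 of 15 repressors and outputs, against 95 of 15322 genes tested. The first list also holds Cry1 and Nfil3, which repress transcription, so its counts and medians are not those of activators alone. The interaction was called in 2 of the 7 (28.6%) and 4 of the 15 (26.7%), against 21.5% of genes tested. The genes of the first list had a median gap of -0.91 after sham, where 4 of 7 were lower and 0 higher in PTCKO. Their median gap was -0.60 after UIR, where 3 were lower and 1 higher. Of all genes tested, 5.5% were lower and 5.23% higher after sham, and 4.5% lower and 9.3% higher after UIR. Dbp was at 3.41, 2.74 and 10.32 FPKM after sham in WT, 35.73, 48.62 and 38.62 after sham in PTCKO, 7.89, 6.07 and 4.33 after UIR in WT, and 25.05, 24.58 and 38.72 after UIR in PTCKO. PTCKO stood above WT in each surgery, by 2.76 and 2.36, and the interaction was not called (-0.40, SE 0.548, adjusted p = 0.632). It was called without WT sham 3, the highest WT sham library, at -1.27 (adjusted p = 0.0441). Per3 gave gaps of 1.43 and 0.92 with no called interaction (-0.51, adjusted p = 0.146), which was called without WT sham 3 (-0.75, adjusted p = 0.0346), without scaling factors (-0.71, adjusted p = 0.0462) and with TPM (-0.68, adjusted p = 0.0273). Arntl had gaps of -1.06 and -0.78 and no called interaction (0.28, adjusted p = 0.463). Dbp, Per3 and Arntl were chosen after their values were seen.

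Of 15 clock repressors and outputs, 3 had a positive and 1 a negative interaction. One of these was Hlf, which had overlapping sham groups of 16.60 to 24.89 FPKM and separate UIR groups of 0.88 to 1.37 in WT and 3.02 to 4.15 in PTCKO (interaction 1.59, SE 0.229, adjusted p = 0.0019). Usp2, a rhythmic deubiquitinase, changed places between the surgeries (-0.65 after sham, 0.67 after UIR; interaction 1.32, SE 0.245, adjusted p = 0.00509). Npas2 had gaps of -1.56 and -0.60 (interaction 0.96, SE 0.235, adjusted p = 0.0146), and with TPM its interaction was not called (0.51, adjusted p = 0.0943). Bhlhe41, a repressor of the loop chosen after its values were seen, was at 0.28 to 0.34 after sham in WT and 0.49 to 0.94 after sham in PTCKO, but at 4.23 to 5.80 after UIR in WT and 3.33 to 3.82 after UIR in PTCKO (interaction -1.33, SE 0.285, adjusted p = 0.00903).

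**Figure D4:**
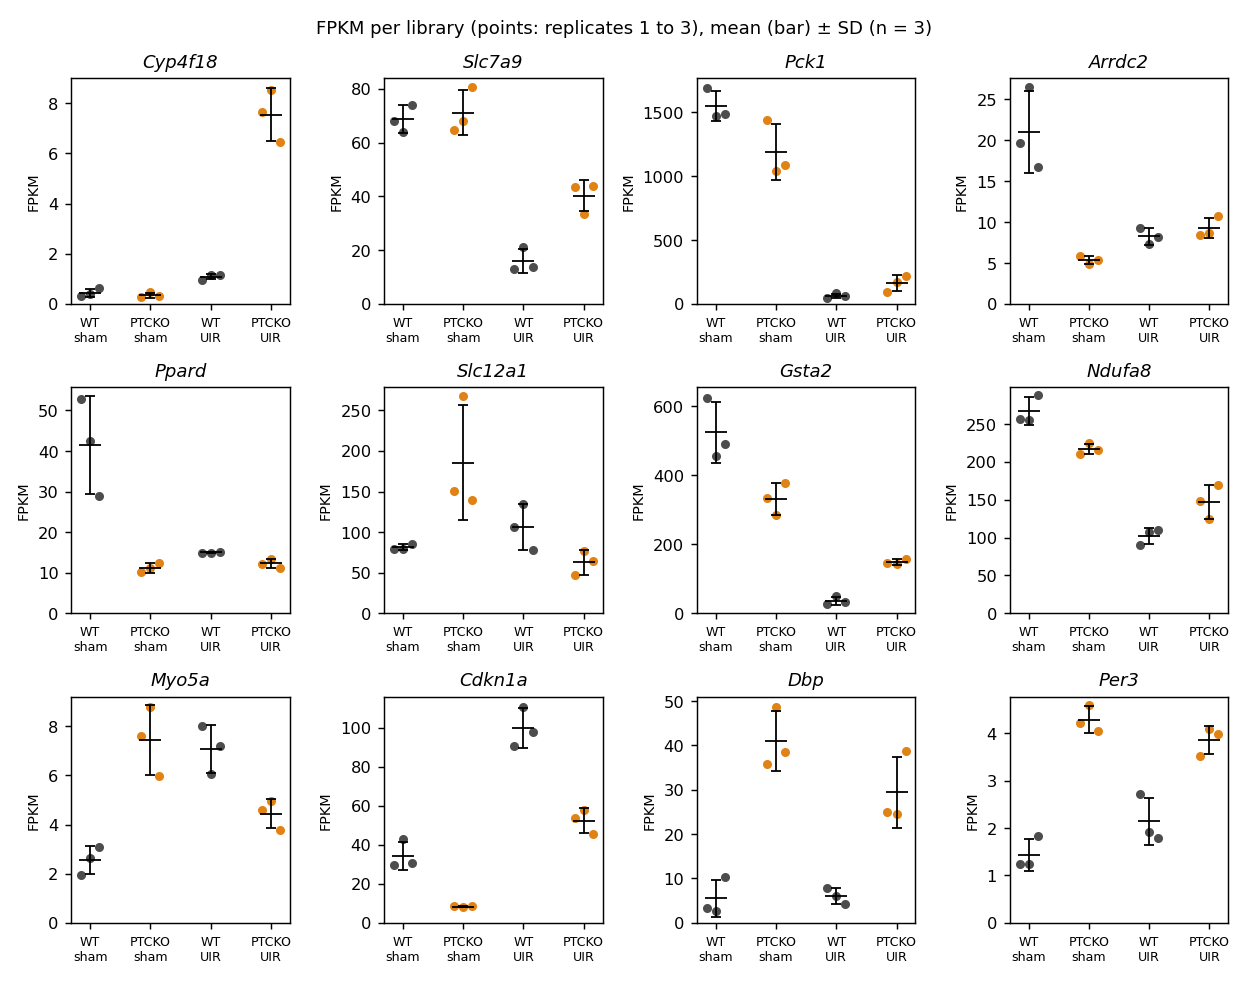
FPKM (y, linear from 0) of 12 genes in the 4 groups (x); points are the 3 libraries of a group, bars the mean ± SD (n = 3), grey for WT and orange for PTCKO. Cyp4f18 and Slc7a9 differ by genotype after UIR, Arrdc2 and Ppard after sham, Gsta2, Ndufa8 and Myo5a after both in opposite order, and Cdkn1a, Dbp and Per3 after both in the same order.

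Promoters of the clock and glucocorticoid-induced genes are shown because known response elements, the glucocorticoid element, the E-box and the D-box, can be looked for in them. Windows from 250 bases before to 50 after a start site were available in RefSeq (GRCm38.p6) for 23 of the 26 glucocorticoid-induced genes and 18 of the 22 clock genes. Both strands were searched. The palindromic glucocorticoid response element, whose letters are the capitals in the Sgk1 window with any base at the 3 central positions, occurred in 3 of 32851 windows of all genes (0.00913%), and in 1 of the 32 windows of the glucocorticoid-induced genes, that of Sgk1. The E-box CACGTG occurred in 7.15% of all windows and in 5 of 14 windows of clock repressors and outputs. It also occurred in 1 of 9 windows of the list of core clock activators, that of Cry1, and in 4 of 32 of glucocorticoid-induced genes. The D-box TTANGTAA occurred in 2.32% of all windows and in 1 of the 14 windows of clock repressors and outputs, that of Per3. It was in 0 of the 9 windows of the list of core clock activators and in 1 of the 32 of glucocorticoid-induced genes. The 3 windows printed here are a start site of Sgk1 (chr10:21993640-21993939, plus strand) with its glucocorticoid element in capitals, Bhlhe41 (chr6:145865371-145865670, minus strand) with its E-box, and Per3 (chr4:151044616-151044915, minus strand) with 2 D-boxes. The Sgk1 window also holds an E-box near its start, left in lower case. A match describes the letters and shows no binding.
Sgk1: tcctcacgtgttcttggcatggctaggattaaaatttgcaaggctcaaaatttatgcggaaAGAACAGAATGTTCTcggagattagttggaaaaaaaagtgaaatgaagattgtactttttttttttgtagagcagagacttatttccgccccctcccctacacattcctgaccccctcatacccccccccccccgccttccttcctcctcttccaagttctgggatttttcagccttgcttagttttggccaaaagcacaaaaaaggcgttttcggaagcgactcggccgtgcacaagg
Bhlhe41: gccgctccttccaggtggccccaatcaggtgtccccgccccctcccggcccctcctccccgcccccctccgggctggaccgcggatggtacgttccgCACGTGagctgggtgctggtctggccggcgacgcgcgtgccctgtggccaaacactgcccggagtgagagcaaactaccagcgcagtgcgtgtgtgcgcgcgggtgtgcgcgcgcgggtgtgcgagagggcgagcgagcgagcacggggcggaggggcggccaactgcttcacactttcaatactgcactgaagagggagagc
Per3: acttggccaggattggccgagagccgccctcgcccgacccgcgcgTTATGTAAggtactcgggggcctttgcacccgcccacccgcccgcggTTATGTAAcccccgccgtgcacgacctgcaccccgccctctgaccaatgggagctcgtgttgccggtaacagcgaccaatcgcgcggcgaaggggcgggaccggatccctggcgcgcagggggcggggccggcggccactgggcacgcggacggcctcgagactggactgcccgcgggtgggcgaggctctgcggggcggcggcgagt
The 3 genes differ in their gaps: Sgk1 was lower in PTCKO after both surgeries, Bhlhe41 was higher after sham alone, and Per3 was higher after both.

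Matrix, interferon and endothelial lists held more negative than positive interactions. Negative calls made up 7.08% of all genes tested and 16.0% of the longest of the 5 length classes. Matrix transcripts were long, with a median effective length of 4966 bases against 2804 over all genes tested. Of 38 extracellular matrix and myofibroblast genes, 9 had a negative and 0 a positive interaction (median -0.50), 6 of them with the gap after UIR alone and 3 with neither. Whatever the interaction, 16 of 38 were lower in PTCKO after UIR and 0 higher, against 4.5% and 9.3% of genes tested. The count of 9 depended on scaling and on single libraries. With the length trend removed it was 11, with 10 negative and 1 positive. It was 15 with DESeq2 and with upper quartile scaling, 23 without scaling factors, 27 with limma on log2(FPKM + 1) and 28 with TPM. It was 3 without PTCKO UIR 1, PTCKO UIR 3 or WT UIR 1, 4 without PTCKO sham 1 or PTCKO sham 2, 5 without WT sham 1, 14 without WT sham 2 and 17 without PTCKO UIR 2. Thbs1, a matricellular protein that activates latent TGF-beta, was at 4.12, 4.49 and 2.13 FPKM after sham in WT, 4.97, 6.27 and 4.58 after sham in PTCKO, 41.09, 42.03 and 47.09 after UIR in WT, and 16.11, 28.66 and 15.92 after UIR in PTCKO. The genotypes were separate in each surgery, PTCKO above WT after sham and below it after UIR, and the gap after UIR alone was called (interaction -1.48, SE 0.344, adjusted p = 0.0122). Timp2, an inhibitor of metalloproteinases, gave -0.63 (SE 0.159, adjusted p = 0.0162). Decorin, Dcn, a small proteoglycan of fibroblasts, gave -1.28 (SE 0.324, adjusted p = 0.0168) with neither gap called.

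Interferon response genes had 7 negative and 1 positive interaction of 24 (median -0.25). Ifi44 was at 3.61 to 3.90 FPKM after sham in WT, 3.94 to 5.38 after sham in PTCKO, 17.24, 14.33 and 14.99 after UIR in WT, and 6.34, 9.17 and 7.21 after UIR in PTCKO (interaction -1.19, SE 0.192, adjusted p = 0.00297). Rsad2, the antiviral enzyme viperin, changed places: 5.17 to 6.02 after sham in WT against 7.67 to 8.78 after sham in PTCKO, and 15.36 to 16.94 after UIR in WT against 9.04 to 12.78 after UIR in PTCKO (interaction -0.98, SE 0.159, adjusted p = 0.003). Stat2, which carries the interferon signal to the nucleus, gave -0.83 (SE 0.205, adjusted p = 0.0152). The count of 8 called was 4 without PTCKO sham 2, PTCKO UIR 1, PTCKO UIR 3, WT sham 1, WT sham 3 or WT UIR 1, and 5 without PTCKO sham 1 or WT UIR 3, or with the length trend removed.

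Endothelial markers had 5 negative and 0 positive interactions of 13 (median -0.47), 3 without WT UIR 1, 9 without PTCKO UIR 2 and 11 without scaling factors. Whatever the interaction, 11 of 13 were lower in PTCKO after UIR and 0 higher, against 4.5% and 9.3% of genes tested. Pecam1, the platelet-endothelial adhesion molecule, was at 12.47 to 14.46 FPKM after sham in WT, 14.60 to 16.96 after sham in PTCKO, 38.08 to 45.90 after UIR in WT and 26.70 to 29.98 after UIR in PTCKO (interaction -0.60, SE 0.134, adjusted p = 0.0101). Tek, the angiopoietin receptor, was higher in PTCKO after sham and lower after UIR (-0.79, SE 0.156, adjusted p = 0.00634). Among TGF-beta signalling genes, the co-receptor Tgfbr3 did the same (-0.92, SE 0.178, adjusted p = 0.00584), and Bmp7, a BMP ligand made in the tubule, had a positive interaction (0.76, SE 0.136, adjusted p = 0.00442). Their list of 25 genes had 3 positive and 2 negative interactions (20.0%, against 21.5% of genes tested). Its called count was 4 with upper quartile scaling and 11 with TPM. Npy, the neuropeptide Y precursor, was at 0.80, 1.53 and 0.68 after sham in WT, 1.57, 6.46 and 1.46 after sham in PTCKO, 26.68, 15.56 and 19.83 after UIR in WT, and 3.25, 8.29 and 3.56 after UIR in PTCKO. The UIR groups were separate (interaction -3.48, SE 0.78, adjusted p = 0.0105). Npy was taken from genes with a called gap after UIR, so the separation adds no support.

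Some negative interactions of the sham class, those of Slc4a11 and Cck among them, depended on single libraries. Slc12a1, the sodium-potassium-chloride cotransporter of the thick ascending limb, was at 78.98, 79.60 and 85.75 FPKM after sham in WT, 150.56, 267.25 and 139.20 after sham in PTCKO, 106.12, 135.13 and 78.18 after UIR in WT, and 46.69, 76.91 and 64.83 after UIR in PTCKO. The groups did not overlap in either surgery (interaction -1.75, SE 0.352, adjusted p = 0.00675). PTCKO sham 2 was the highest of the 12 libraries. Bcat1, a branched-chain aminotransferase, was at 0.15, 0.63 and 1.42 after sham in WT and 2.32, 7.79 and 3.07 after sham in PTCKO, against 5.97 to 6.93 after UIR in WT and 2.64 to 3.35 after UIR in PTCKO (-3.45, SE 0.712, adjusted p = 0.00744). Slc4a11, a borate-transporter family member, and Cck, the cholecystokinin precursor, had 6.48 and 5.10 FPKM in PTCKO sham 2 against at most 1.32 in every other sham library. Their interactions of -3.14 (adjusted p = 0.0396) and -2.56 (adjusted p = 0.0304) were not called without PTCKO sham 2, at -1.72 and -1.61. They were also lost without WT sham 3 (-3.12 and -2.28), PTCKO UIR 3 (-3.32 and -2.55) or WT UIR 1 (-3.20 and -2.48). The call for Slc4a11 was lost too without PTCKO UIR 1 (-3.34), WT sham 1 (-2.78), WT UIR 2 (-3.02) or WT UIR 3 (-3.18), and that for Cck without WT sham 2 (-2.27). With limma on log2(FPKM + 1) neither was called (-1.25 and -1.10).

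Smoc2, a matricellular protein, gave -2.48 (SE 0.63, adjusted p = 0.0173), and -2.23 with no call without WT sham 3. Thick ascending limb markers had 3 negative and 0 positive interactions of 9 (median -0.44), and 1 without WT UIR 2, where Tmem207 was not called (-1.85, against -2.26 with all libraries). Their summed FPKM was 1347 to 1541 after sham in WT and 1583, 1972 and 3064 after sham in PTCKO, with PTCKO sham 2 the highest, and 529 to 770 after UIR in WT and 481 to 785 after UIR in PTCKO. The part of this nephron segment in the sham gaps was not tested.

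Beta-globin genes had the lowest interaction values among named genes with reads in every group, and they split the libraries by gene rather than by level. Hbb-b1 and Hbb-b2 are the names of the adult beta-globin genes of some mouse haplotypes, and Hbb-bs and Hbb-bt those of another. Hbb-b1 was at 163.00, 392.27 and 8.11 FPKM after sham in WT, 231.90, 5.13 and 105.74 after sham in PTCKO, 389.66, 677.85 and 677.47 after UIR in WT, and 2.19, 0.79 and 2.82 after UIR in PTCKO. Hbb-bs was at 143.38, 1.15 and 300.99, at 206.51, 426.59 and 107.01, at 323.08, 549.65 and 3.16, and at 373.87, 790.46 and 1308.01 in the same order. The libraries low in Hbb-b1 (WT sham 3, PTCKO sham 2 and all PTCKO UIR) were high in Hbb-bs, the libraries low in Hbb-bs (WT sham 2 and WT UIR 3) were high in Hbb-b1, and the other 5 had both.

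The interaction of Hbb-b1 was -7.37 (SE 1.79, adjusted p = 0.0141) and that of Hbb-b2 -7.48 (SE 2.03, adjusted p = 0.0221), the latter lost without PTCKO sham 1 (-6.31) or PTCKO UIR 3 (-7.31). Hbb-bs (1.01, adjusted p = 0.71) and Hbb-bt (0.67, adjusted p = 0.759) were not called. The 4 genes together were at 339, 426 and 341 FPKM after sham in WT, 479, 492 and 237 after sham in PTCKO, 784, 1335 and 739 after UIR in WT, and 423, 878 and 1443 after UIR in PTCKO, with overlapping groups in each surgery. The alpha-globin genes Hba-a1 (0.34, adjusted p = 0.735) and Hba-a2 (0.12, adjusted p = 0.902) were not called, nor were the erythroid genes Alas2, Slc4a1 and Epor (adjusted p = 0.855, 0.622 and 0.742). These genes are near-identical copies between which the authors' counting may divide reads, so the value of each alone is uncertain. Whether the libraries differ in beta-globin haplotype, or whether such a difference bears on other genes, was not tested. Among UIR libraries, Hbb-b1 was low in all of PTCKO and high in all of WT, so its split cannot be told apart from genotype there.

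**Figure D5:**
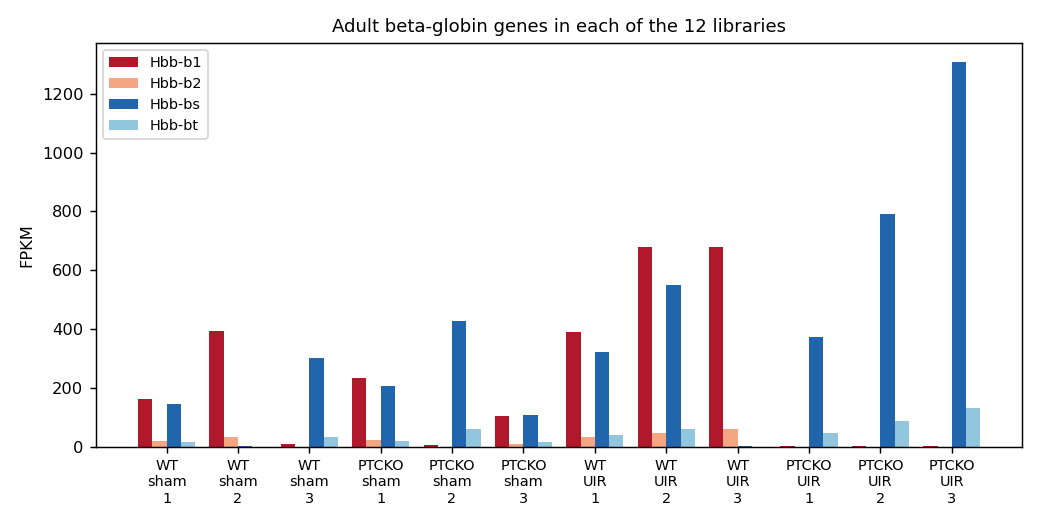
FPKM (y, linear from 0) of 4 adult beta-globin genes in each of the 12 libraries (x). Hbb-b1 and Hbb-b2 are at or near 0 in PTCKO sham 2, WT sham 3 and all PTCKO UIR libraries, while Hbb-bs and Hbb-bt are at or near 0 in WT sham 2 and WT UIR 3.

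Some injury and immune lists held no called interaction. No immediate early gene was called of 18, no podocyte marker of 9, no neutrophil marker of 6 and no T or NK cell marker of 13 (each a count of 0). At an unadjusted p under 0.05, which 36.6% of genes tested passed, the counts were 0, 1, 3 and 0 in that order, and with DESeq2 they were 0, 1, 1 and 0. The neutrophil markers had a median interaction of 1.35 over the 6 tested, none called by edgeR. In the edgeR test 1 of 18 macrophage and monocyte markers was called. Of 25 cell cycle genes, 1 was positive and 1 negative, a share of 8.0% against 21.5% of genes tested. Of 27 tubule injury genes, 3 were positive and 3 negative (22.2%, near the share of all genes), and the called count was 3 without PTCKO UIR 1, PTCKO UIR 3, WT sham 1, WT sham 3, WT UIR 1 or WT UIR 3. Itgb6, the epithelial integrin subunit that activates TGF-beta, had overlapping sham groups and separate UIR groups of 11.85 to 16.29 FPKM in WT and 17.52 to 24.77 in PTCKO (interaction 1.07, SE 0.226, adjusted p = 0.00851). Anxa1, an anti-inflammatory annexin, was at 144.20 to 192.38 after UIR in WT and 87.74 to 101.23 after UIR in PTCKO (interaction -0.74, SE 0.196, adjusted p = 0.0202), and was not called without PTCKO sham 2 (-0.62). Jchain, the joining chain of secreted antibodies, was at 30.97, 34.07 and 83.60 after UIR in WT and 313.89, 38.23 and 71.55 after UIR in PTCKO, and its interaction of 3.09 was 1.74 without PTCKO UIR 1 and then not called. It was also not called without PTCKO sham 2 (2.92), PTCKO sham 3 (3.02), WT sham 2 (2.86), WT UIR 1 (2.83) or WT UIR 2 (2.87), or with limma on log2(FPKM + 1) (2.37) or TPM (2.26). Of 8 NEDD4-family ligases, 2 were negative and 0 positive (25.0%, near the share of all genes). Their median effective length was 5367 bases, against 2804 over all genes tested. Smurf2, which targets TGF-beta receptors, was among the called ligases (-0.68, SE 0.151, adjusted p = 0.00993), with its gap after sham alone.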

How the data were processed

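Whole-kidney RNA was sequenced in 12 libraries. Bowtie2, RSEM, DESeq2 and the GRCm38.p6 build are named in the submitters' processing notes, without versions. Per the file headers, the authors deposited FPKM, TPM and a read count for every gene in each library. These deposited read counts were taken as RSEM expected counts because 30.8% to 35.4% of values were not whole (tolerance 1e-06). The expected counts were rounded and fitted with edgeR 4.0.16 in R 4.3.3 (filterByExpr, TMM, 1 coefficient per group, 8 residual degrees of freedom, biological coefficient of variation 0.121). Two-sided p-values were adjusted (Benjamini-Hochberg) over the 15322 genes tested of 18803, called under 0.05. The deposited FPKM and TPM values served as levels and in limma 3.58.1 alternatives (pseudocounts of 1 and 0.1, at least 1 in 3 libraries); DESeq2 1.42.0, other scalings, no filter, a replicate block and leaving out each library were also run. Effective length was computed from the deposited counts and FPKM. Scripts were tested on simulated data.

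Genes were named by rule: in each gap class, the 4 largest interactions of each sign among called genes whose highest group mean was 5 FPKM or more, without predicted genes and pseudogenes; in each list with at least 3 called members, the 3 of lowest p; all tested globin and erythroid genes; and Wwp2. Others are marked as chosen after their values were seen. Genes of this rule with near-identical copies or 0 counts in whole groups (H3c14, H2bc23, Sirpb1b, Serpina1b, Serpina1c and Ugt1a6b) are uncertain and are not described, and some others are not reported here. The groups, gene lists and gap classes were chosen with earlier results of these data known. Apart from Wwp2 and the globin and erythroid genes, named genes were picked for their calls or values. Separate groups of such a gene therefore add no support. Lists are described by counts and medians, with no test of a list. Of the Entrez identifiers, 99.7% matched the annotation that gave coordinates.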

Additional observations from a re-analysis of the deposited data

Results flagged for a closer look

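Under the same contrast, UIR against sham, the effect differed between the genotypes for 3288 of 15322 genes tested, by edgeR's interaction term at an adjusted p under 0.05. The described genes among them are given here with the interaction, the log2 change after UIR in PTCKO minus that in WT. No explanation was weighed, and 73 of the 81 were called without each library in turn.

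With a called genotype gap after UIR alone, the interaction was positive for Cyp4f18 (3.44), Fga (3.11), Fgg (2.87), Calb1 (3.08), Ftcd (2.92), Hlf (1.59), Sdhb (0.89), Uqcrq (1.13), Cox5a (0.95), Pck1 (1.93), Fbp1 (1.70), Slc37a4 (1.24), Idh2 (0.77), Itgb6 (1.07), Bmp7 (0.76), Cfb (1.21), Slc47a1 (1.34), Cyp2a5 (2.64), Slc7a9 (1.42), Slc3a1 (1.25), Amn (1.71), Scnn1b (0.96) and Aqp3 (1.12). In the same class it was negative for Npy (-3.48), Hbb-b1 (-7.37), Hbb-b2 (-7.48), Anxa1 (-0.74), Thbs1 (-1.48), Timp2 (-0.63), Ifi44 (-1.19), Stat2 (-0.83) and Pecam1 (-0.60). With a called gap after sham alone, the interaction was positive for Arrdc2 (2.32), Noct (2.15), Rdh16f2 (2.12), Polr3e (1.93), Ppard (1.79), Rpl10a (0.78), Rps28 (0.78), Mrpl23 (0.73), Gstp1 (1.06) and Psat1 (0.82). In the same class it was negative for Bcat1 (-3.45), Smoc2 (-2.48), Slc4a11 (-3.14), Cck (-2.56), Id3 (-0.58), Slc12a1 (-1.75), Tmem207 (-2.26), Smurf2 (-0.68) and Bhlhe41 (-1.33). With called gaps of opposite sign after both surgeries, the interaction was positive for Gsta2 (2.89), Mbl1 (2.86), Dnase1 (2.46), Gadd45g (2.37), Usp2 (1.32), Ndufa8 (1.02), Ndufa6 (1.00), Atp5o (0.77), Mrps35 (1.02), Acaa1b (2.16), Etfb (1.23), Decr1 (0.93), Gpx1 (1.40), Shmt2 (1.12) and Slc22a8 (2.16). In the same class it was negative for Myo5a (-2.03), Gpr182 (-1.74), Serpinb8 (-1.23), Tgfbr3 (-0.92), Rsad2 (-0.98) and Tek (-0.79). With called gaps of the same sign after both surgeries, the interaction was positive for Cdkn1a (1.31), Dnajc6 (1.22), Tgm1 (1.07), Npas2 (0.96), Sgk1 (0.70) and Tsc22d3 (0.78). With neither gap called, the interaction was positive for Jchain (3.09). In the same class it was negative for Pnp2 (-2.42) and Dcn (-1.28).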

How the results depend on the processing

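Of 81 described genes called for the interaction, 73 were called without each library in turn and 64 in every refit, all at an adjusted p under 0.05. The stricter threshold of 0.01 was not part of these counts. Not-called genes changed sign in 4 cases: Wwp2 (-0.014) and Arntl (-0.097) with TPM, and Nr1d2 with the length trend removed (0.11) and without single libraries, which gave -0.22 to 0.02 (0.02 without WT UIR 2). The replicate numbers did not pair the libraries (same-number correlations of deviations -0.0893 to 0.179 over 18 pairs of libraries), and with a replicate block 3274 genes were called. The block changed the called members of the fibroblast and pericyte list from 4 to 2 and of the tubule injury list from 6 to 3. Depth limits genes of low counts, and 3 libraries per group limit all. The causes of the changes below were not tested, except that a stricter or looser threshold calls fewer or more genes by construction.

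Counts that moved by more than 1.5 times are given by setting. DESeq2 gave 386 opposite-gap genes and 15 matrix members. Removing the length trend gave 2079 interaction calls, 603 negative calls, 768 sham-gap calls, 382 sham-only genes, 75 opposite-gap genes, 530 genes with neither gap, 1 ribosomal member and 29 oxidative phosphorylation members. Limma on log2(FPKM + 0.1) gave 1153 positive calls, 2239 negative calls, 90 opposite-gap genes, 13 ribosomal members and 20 matrix members. Limma on log2(FPKM + 1) gave 1265 positive calls, 2563 negative calls, 96 opposite-gap genes, 3 same-sign genes, 23 ribosomal members and 27 matrix members. Limma on log2(TPM + 1) gave 813 positive calls, 3935 negative calls, 2476 sham-gap calls, 1698 sham-only genes, 119 opposite-gap genes, 1618 genes with neither gap, 7 ribosomal members, 28 matrix members and 47 oxidative phosphorylation members. Counts without scaling factors gave 1218 positive calls, 2579 negative calls, 18 ribosomal members and 23 matrix members. Upper quartile scaling gave 15 matrix members. A threshold of 0.01 gave 904 interaction calls, 731 positive calls, 173 negative calls, 168 sham-gap calls, 884 UIR-gap calls, 79 sham-only genes, 441 UIR-only genes, 7 opposite-gap genes, 1 same-sign gene and 376 genes with neither gap. A threshold of 0.1 gave 1924 negative calls, 3126 sham-gap calls, 1779 sham-only genes, 520 opposite-gap genes and 21 same-sign genes.

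Leaving out each library in turn gave these ranges: interaction calls 1743 to 4565, positive calls 1217 to 2800, negative calls 509 to 1765, sham-gap calls 430 to 2183, UIR-gap calls 904 to 3321, sham-only genes 250 to 1050, UIR-only genes 514 to 1856, opposite-gap genes 32 to 580, same-sign genes 4 to 10, genes with neither gap 509 to 1276, glucocorticoid members 8 to 13, ribosomal members 7 to 55, matrix members 3 to 17, proximal tubule members 25 to 35 and oxidative phosphorylation members 52 to 75. For the gaps, calls after sham fell to 430 when WT sham 3 was left out, to 504, 524 and 653 for PTCKO sham 1, 2 and 3, and to 753 for WT sham 1. Calls after UIR were 904 on leaving out PTCKO UIR 3, 989 for WT UIR 1, 1230 for WT UIR 3, 1307 for PTCKO UIR 1 and 3321 for PTCKO UIR 2. Each list whose median interaction is given in the results had a median of the same sign under every scaling run.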
